A study of Mus musculus with 6 samples.

Results

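The genes of the CD94/NKG2 receptors and of their ligand Qa-1 were followed in CD4-derived double negative T cells (cDNT) with and without interleukin-10 (IL-10). The 9 members were taken by name from the deposited count table of 29393 genes. They are the NKG2 chains Klrc1 (NKG2A), Klrc2 (NKG2C) and Klrc3 (NKG2E), their partner Klrd1 (CD94), the related lectin receptors Klrk1 (NKG2D), Klre1 and Klrg1, the lectin-like ligand Clec2d (Clr-b) and H2-T23, the class I gene that encodes Qa-1. All 9 were among the 14916 genes with enough counts to test.

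The cells carry the labels C57BL/6, adult, spleen and double negative T cells. Per the study's methods, such cells start as splenic and lymph node CD4+CD25- T cells, are grown with interleukin-2 and mature dendritic cells and are then sorted, so they are a converted, cultured population. The 3 W/ IL-10 libraries came from cells given IL-10 at 50 ng/ml for 24 h, and the 3 W/O IL-10 libraries came from cells without it. The methods also name anti-CD3/CD28 antibodies for the stimulation, which the labels do not list. Neither source says whether the 3 libraries of a group came from separate mice or cultures, so the p-values measure the spread between these libraries, which may be technical.

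NKG2A, NKG2C and NKG2E each pair with CD94 to bind Qa-1, a nonclassical class I molecule that shows the cell's own class I leader peptides at the surface. NKG2A carries inhibitory motifs in its cytoplasmic tail, whereas NKG2C and NKG2E lack them and signal through adaptor proteins. NKG2D, which pairs with itself and binds stress-induced ligands, is activating, and KLRG1 is an inhibitory receptor for cadherins.

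The difference between the inhibitory chain and its relatives can be read in the first coding exon, which encodes most of the cytoplasmic tail. The exons are shown from the start codon on the minus strand of chromosome 6 (GRCm38), and capitals mark the codons that match the immunoreceptor tyrosine-based inhibitory motif. They lie at chr6:129678724-129678910 in Klrc1, chr6:129660388-129660556 in Klrc2 and chr6:129643120-129643288 in Klrc3.
Klrc1: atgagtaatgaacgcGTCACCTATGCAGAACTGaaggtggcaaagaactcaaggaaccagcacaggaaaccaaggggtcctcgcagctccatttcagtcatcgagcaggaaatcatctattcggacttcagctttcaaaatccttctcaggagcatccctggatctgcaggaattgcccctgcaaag
Klrc2: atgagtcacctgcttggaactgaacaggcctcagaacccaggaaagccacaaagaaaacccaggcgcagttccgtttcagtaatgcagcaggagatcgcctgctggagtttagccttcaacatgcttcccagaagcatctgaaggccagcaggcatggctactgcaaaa
Klrc3: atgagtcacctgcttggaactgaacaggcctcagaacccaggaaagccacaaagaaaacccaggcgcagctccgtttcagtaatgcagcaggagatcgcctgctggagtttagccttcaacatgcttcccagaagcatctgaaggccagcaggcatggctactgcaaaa
The Klrc1 exon held 1 match, at coding bases 16 to 33, and the Klrc2 and Klrc3 exons held 0, although Klrc2 had 1 match further along its coding sequence. The Klrc2 and Klrc3 exons differed at 1 of 169 bases. Klrc1 and Klrc2 were identical at 77.9% of the bases that could be paired in this exon and at 85.9% over the whole coding sequence, where Klrc2 and Klrc3 reached 95.8%. Of the 50-base stretches in Klrc1 exons, 36.6% also occurred in Klrc2 and 2.5% in Klrc3, so reads from these stretches could have been discarded or moved between the genes. The 3 NKG2 chains were therefore also tested as a sum, which keeps moved reads but not discarded ones.

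Total counts ranged from 21619420 to 23967088 per library. Over the whole table, 217 of 14916 genes (1.45%) were called, which means an adjusted p under 0.05 by edgeR's quasi-likelihood test and a fold change of at least 1.5, and 116 (0.778%) were called in the direction of higher W/ IL-10. The T cell genes Cd3d, Cd3e and Cd3g were abundant in all libraries, at 219 to 482 CPM (counts per 1000000 counts of the library, scaled by its TMM factor), and Cd4 was at 0.350 to 1.55 CPM, but Cd8a was at 95.8 to 169 CPM and Cd8b1 at 32.6 to 66.6 CPM in cells labelled double negative. Genes with few G and C bases tended to be higher W/ IL-10, with a median log2 fold change of 0.42 in the 108 genes with at most 36% GC and -0.13 in the 433 genes above 60%. The median was 0.23 in the 900 genes with more than 36% and up to 40% GC, among them Klrc1, Klrd1 and Klrk1. It was -0.06 in the 2944 genes with more than 52% and up to 56%, among them H2-T23. The exons of Klrc1, Klrc2, Klrd1 and Klrk1 held 35.7% to 36.7% GC and those of H2-T23 53.9%, so the members are given below also after a correction for GC content and length.

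Transcripts of the CD94/NKG2 receptors rose with IL-10, and no change was detected in those of Qa-1. Klrc1, Klrc2, Klrd1 and Klrk1 were called, all higher W/ IL-10, which is 4 of 9 members against 0.778% of all tested genes. The members were chosen with earlier results of these data known, so the contrasts with all tested genes are descriptions and not independent evidence. Klrc3 had the largest fold change of the members but the fewest counts and missed the adjusted p. Klrg1, Klre1, Clec2d and H2-T23 were not called. In 6 of the 9 members the 3 libraries of a group did not overlap those of the other, against 22.6% of all tested genes. The median log2 fold change was 0.96 over the members and 0.01 over all tested genes. The same 4 genes were called after the GC and length correction, all higher W/ IL-10, when 157 of 14916 tested genes were called higher. In either direction 1.8% of all tested genes were called after that correction. The shares that follow here also count calls in either direction. The count depends on single libraries, as does that of all genes. The 9 members held 0 calls without W/ IL-10 replicate 1 or replicate 3, when edgeR called 0.388% and 0.238% of all tested genes. In these fits 6 and 5 members had an unadjusted p under 0.05. That threshold is looser than a call, and the share of all tested genes that met it is not given, here or below. Such counts therefore cannot be set beside the shares called. Without W/O IL-10 replicate 2 only Klrc1 was called (1 member, 0.513% of all), and without W/ IL-10 replicate 2 Klrc1 and Klrk1 were (2 members, 0.666% of all). The count was 4 without W/O IL-10 replicate 1 or replicate 3, against 1.73% and 1.22% of all.

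**Figure D1:**
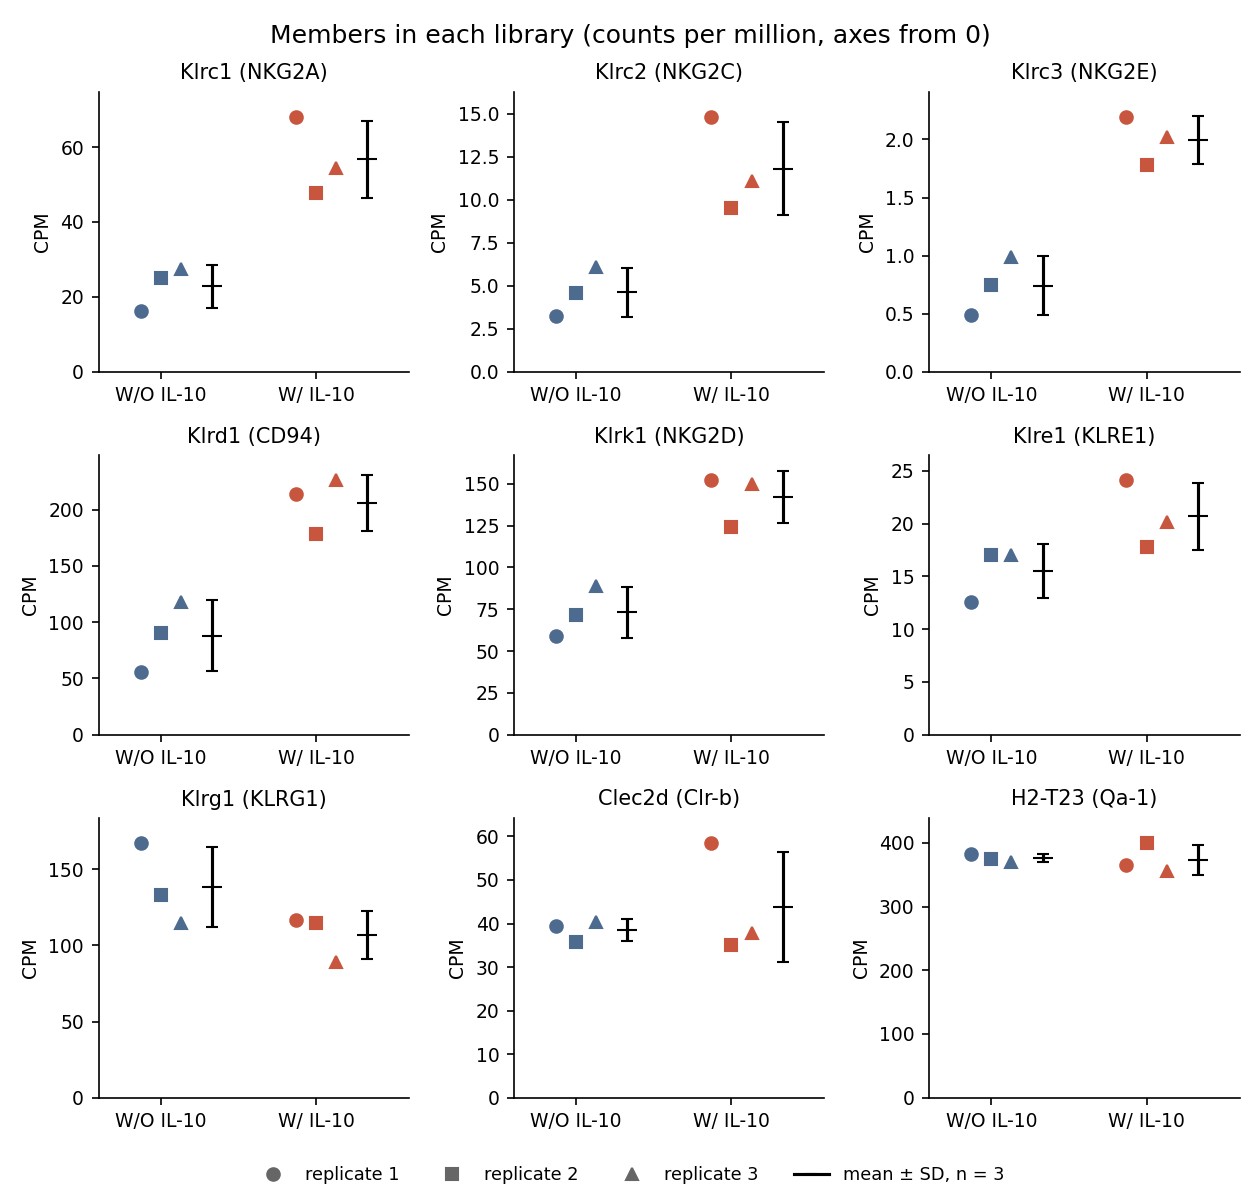
CPM of each of the 9 genes (vertical axes, each from 0) in the 3 libraries of each group (points, shaped by replicate number), with the mean ± SD (n = 3). The groups stand apart for Klrc1, Klrc2, Klrc3, Klrd1, Klrk1 and narrowly Klre1, and they overlap for Klrg1, Clec2d and H2-T23.

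Klrc1, the inhibitory chain, was at 16.3, 24.9 and 27.3 CPM without IL-10 and at 67.9, 47.8 and 54.3 CPM with it, in the order of replicates 1, 2 and 3, as for all genes below. The groups did not overlap, and the lowest and the highest value were both in replicates numbered 1. The means were 22.8 ± 5.75 and 56.7 ± 10.2 CPM (SD, n = 3), a 2.48-fold increase (log2 1.31, SE 0.19, 95% interval 0.87 to 1.75, edgeR quasi-likelihood test, Benjamini-Hochberg adjusted p = 0.0147). After the GC and length correction the log2 fold change was 0.93 and the gene was still called (adjusted p = 0.00166, edgeR). It was no longer called without W/ IL-10 replicate 1 (edgeR adjusted p = 0.0784) or without W/ IL-10 replicate 3 (edgeR adjusted p = 0.0981), at log2 1.16 and 1.34.

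Klrc2, an activating chain, had 79, 111 and 141 counts W/O IL-10 and 304, 215 and 254 counts W/ IL-10. The corresponding levels were 3.23, 4.59 and 6.07 CPM against 14.8, 9.55 and 11.1 CPM. The groups did not overlap, and as in Klrc1 the extremes were both in replicates numbered 1. Its log2 fold change was 1.35 (SE 0.25, adjusted p = 0.0321 by edgeR) and 0.95 after the GC and length correction (adjusted p = 0.0255 by edgeR). The call was lost when any of W/O IL-10 replicate 2 or the 3 W/ IL-10 replicates was left out, with edgeR adjusted p of 0.0702 to 0.152.

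Klrc3, the NKG2E gene, was close to the limit of detection, with 12, 18 and 23 counts W/O IL-10 and 45, 40 and 46 counts W/ IL-10. These groups did not overlap either. The log2 fold change was 1.43 with the largest error of the members (SE 0.33, 95% interval 0.69 to 2.17), and the adjusted p was 0.0695 by edgeR. The gene was called by DESeq2 (adjusted p = 0.0183), which called 2.67% of all genes to which it gave an adjusted p. The edgeR test also called it with 2 other count filters, at an adjusted p of 0.0484 for genes with at least 10 counts in every library and of 0.0091 with no filter. The first called 206 of 13449 genes and the second 639 of 29393. With no filter the SE of Klrc3 was larger, at 0.39, so the lower adjusted p there does not reflect a more precise estimate.

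With the counts of the 3 NKG2 chains summed, the log2 fold change was 1.32 (SE 0.20, 95% interval 0.87 to 1.77, adjusted p = 0.0155 by edgeR). The sum does not depend on how counted reads were shared among them, but discarded reads are missing from it. The call of the sum was lost without W/O IL-10 replicate 2, W/ IL-10 replicate 1 or W/ IL-10 replicate 3, at edgeR adjusted p of 0.0533 to 0.0997. Klrc1 made up most of this sum. Its share was 81.5%, 82.3% and 79.4% W/O IL-10 and 80.0%, 80.9% and 80.5% W/ IL-10. The groups overlapped, and the mean share moved from 81.1 ± 1.5% to 80.5 ± 0.425% (SD, n = 3, exact two-sided permutation p = 0.5, Benjamini-Hochberg adjusted p = 0.667 over the 4 ratios tested). A change in the mix of inhibitory and activating chains was not detected, while their total rose. Each of these exact permutation tests compares 3 with 3 libraries and cannot give a p under 0.1.

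Klrd1 encodes CD94, the partner without which the NKG2A, NKG2C and NKG2E chains do not form the Qa-1 receptor. It was at 55.6, 90.4 and 118 CPM W/O IL-10 and at 214, 178 and 226 CPM W/ IL-10. The groups did not overlap, although W/O IL-10 replicate 1 lay well below the other libraries of its group. The increase was 2.34-fold (log2 1.23, SE 0.23, edgeR adjusted p = 0.0357), and log2 0.87 after the GC and length correction (edgeR adjusted p = 0.00521). The call was lost without W/O IL-10 replicate 2 and without any single W/ IL-10 replicate, at edgeR adjusted p of 0.0865 to 0.185.

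No change was detected in the ratio of the NKG2 chains to CD94. There were 0.361, 0.335 and 0.290 summed NKG2 chain counts for each Klrd1 count W/O IL-10 and 0.396, 0.332 and 0.298 W/ IL-10. The 2 ranges overlapped, and the log2 ratio went from -1.61 ± 0.159 to -1.56 ± 0.206 (a difference of 0.0539, SD, n = 3, exact two-sided permutation p = 0.8, adjusted p = 0.8). In both groups the value for replicate 1 was the highest and that for replicate 3 the lowest.

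Klrk1, the gene of the activating receptor NKG2D, was at 58.8, 71.6 and 88.8 CPM W/O IL-10 and at 152, 124 and 150 CPM W/ IL-10. It rose without overlap of the groups, by 1.95-fold on average (log2 0.96, SE 0.15, 95% interval 0.63 to 1.29, edgeR adjusted p = 0.0165). The correction for GC and length took the log2 fold change to 0.59, just past the 1.5-fold threshold (edgeR adjusted p = 0.0472). Its call was lost without W/O IL-10 replicate 2, W/ IL-10 replicate 1 or W/ IL-10 replicate 3, at edgeR adjusted p of 0.0772, 0.0937 and 0.120.

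Klrc1 counts per Klrk1 count, a measure of the inhibitory NKG2A transcript against the activating NKG2D transcript, were 0.278, 0.348 and 0.307 W/O IL-10 and 0.447, 0.385 and 0.361 W/ IL-10. The lowest W/ IL-10 library was just above the highest W/O IL-10 library. The log2 ratio was higher by 0.356 (-1.69 ± 0.162 against -1.34 ± 0.157, SD, n = 3), at the smallest p that these libraries allow (exact two-sided permutation p = 0.1, adjusted p = 0.2).

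**Figure D2:**
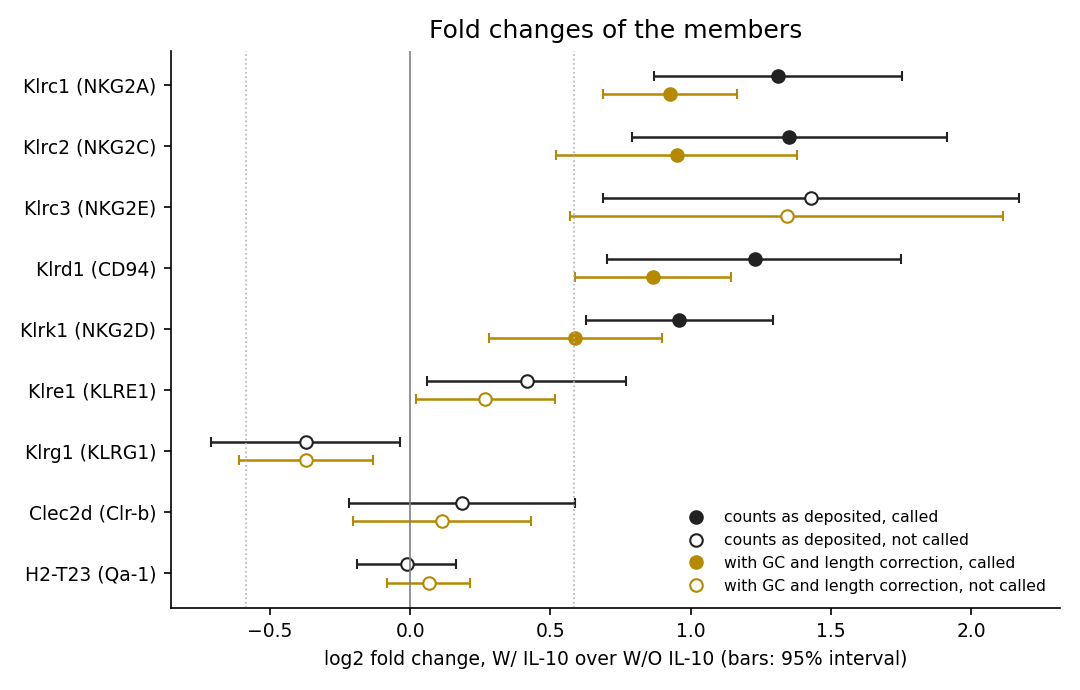
Log2 fold change, W/ IL-10 over W/O IL-10, of the 9 genes with 95% intervals (bars), from the deposited counts (black) and after correction for GC content and length (yellow); filled points were called and dotted lines mark a 1.5-fold change. Klrc1, Klrc2, Klrd1 and Klrk1 are filled in both settings but sit closer to 0 after correction, while H2-T23 lies at 0.

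The other lectin-like genes were not called. Klre1, which encodes a receptor that forms dimers with the KLRI chains, was at 12.6, 17.0 and 17.0 CPM W/O IL-10 and at 24.1, 17.8 and 20.2 CPM W/ IL-10. The groups were separate by less than 1 CPM, and the log2 fold change of 0.42 (SE 0.16) did not pass the test (edgeR adjusted p = 0.258).

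Klrg1, an inhibitory receptor of effector T cells and natural killer (NK) cells, was at 167, 133 and 115 CPM W/O IL-10 and at 117, 115 and 89.0 CPM W/ IL-10. W/O IL-10 replicate 3 lay within the range of the W/ IL-10 libraries. The log2 fold change was -0.37 (SE 0.15, 95% interval -0.71 to -0.03) and was not called (edgeR adjusted p = 0.287). With no filter on low counts the edgeR adjusted p passed (0.0051, log2 -0.38). It also passed with the GC and length correction plus a block for replicate number (0.0097, log2 -0.37). In both the fold change was too small for a call. The adjusted p did not pass under the other settings, among them the GC and length correction alone (edgeR adjusted p = 0.098). The study lists Klrg1 among the genes downregulated with IL-10.

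Clec2d was at 39.5, 35.7 and 40.3 CPM W/O IL-10 and at 58.4, 35.1 and 37.9 CPM W/ IL-10. The encoded Clr-b is a ligand by which cells engage inhibitory NKR-P1 receptors. Only W/ IL-10 replicate 1 was above the W/O IL-10 range, and the log2 fold change of 0.18 (SE 0.18) was not called (edgeR adjusted p = 0.677).

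H2-T23, the Qa-1 gene, was at 383, 375 and 370 CPM W/O IL-10 and at 365, 399 and 355 CPM W/ IL-10. The W/O IL-10 range lay within the W/ IL-10 range, and the means were 376 ± 6.98 and 373 ± 22.9 CPM (SD, n = 3). Its log2 fold change was -0.01 with the smallest error of the members (SE 0.08, 95% interval -0.19 to 0.16, edgeR adjusted p = 0.963), an interval of 0.878-fold to 1.12-fold. After the GC and length correction the log2 fold change was 0.07 with a 95% interval of -0.08 to 0.21. Of its exonic 50-base stretches, 14.5% are shared with other class I genes.

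The ratio of ligand to inhibitory receptor was lower W/ IL-10, and of its parts only Klrc1 was called. There were 23.5, 15.1 and 13.6 H2-T23 counts for each Klrc1 count W/O IL-10 and 5.37, 8.34 and 6.54 W/ IL-10, with no overlap. The mean ratio went from 17.4 ± 5.34 to 6.75 ± 1.49 (SD, n = 3), and per kilobase of exon from 11.9 ± 3.67 to 4.63 ± 1.03. On the log2 scale the difference was -1.34 (exact two-sided permutation p = 0.1, the smallest possible, adjusted p = 0.2). After the GC and length correction it was -0.856. Per kilobase of exon the H2-T23 level was above the Klrc1 level in all 6 libraries.

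**Figure D3:**
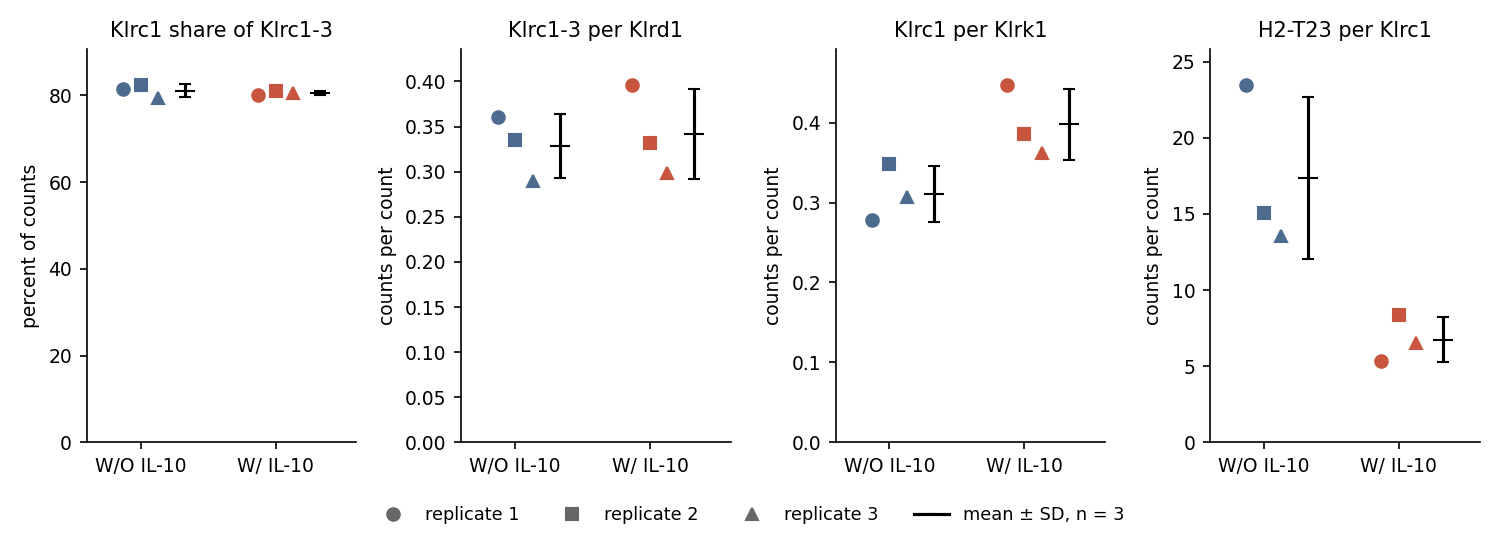
From left to right, the percent of summed Klrc1, Klrc2 and Klrc3 counts that were Klrc1, the summed counts per Klrd1 count, Klrc1 counts per Klrk1 count, and H2-T23 counts per Klrc1 count, in each library (points, shaped by replicate number) with the mean ± SD (n = 3, axes from 0). The first 2 panels overlap between groups, while H2-T23 per Klrc1 fell from 13.6 or more W/O IL-10 to 8.34 or less W/ IL-10.

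Levels of different genes were compared as CPM per kilobase of exon. W/O IL-10 the order was H2-T23 (130 ± 2.42), Klrg1 (97.8 ± 18.5), Klrd1 (68.8 ± 24.5), Clec2d (31.7 ± 1.99), Klrc1 (11.5 ± 2.90), Klrk1 (10.2 ± 2.10), Klre1 (4.45 ± 0.731), Klrc3 (1.01 ± 0.340) and Klrc2 (0.797 ± 0.245). W/ IL-10 the order was Klrd1 (161 ± 19.4), H2-T23 (129 ± 7.94), Klrg1 (75.6 ± 11.0), Clec2d (36.1 ± 10.5), Klrc1 (28.6 ± 5.15), Klrk1 (19.8 ± 2.17), Klre1 (5.93 ± 0.908), Klrc3 (2.71 ± 0.280) and Klrc2 (2.03 ± 0.461). Of neighbours in these orders, the libraries overlapped for Klrg1 and Klrd1, Klrc1 and Klrk1, and Klrc3 and Klrc2 W/O IL-10, and for Clec2d and Klrc1, and Klrc3 and Klrc2 W/ IL-10. The order depends on the gene length used, because the merged exons of Klrc1, Klrk1 and Klrc2 are much longer than their median coding transcript. Per kilobase of the median coding transcript, H2-T23 was first in both groups (255 and 253), Klrk1 (57.5 and 112) was above Klrc1 (30.3 and 75.3), and Klrc2 (4.22 and 10.8) was above Klrc3 (1.04 and 2.79).

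All members but H2-T23 lie in the NK gene complex or near it on chromosome 6. Klre1, Klrd1, Klrk1, Klrc3, Klrc2 and Klrc1 follow each other within 101.1 kb, from the start of Klre1 at 129577905 to the end of Klrc1 at 129678973 (GRCm38). Klrd1 is at chr6:129591782-129598775 on the plus strand, and Klrk1 (chr6:129610323-129623864) and the 3 Klrc genes are on the minus strand. Clec2d (chr6:129180615-129186534) is in the same complex, Klrg1 (chr6:122270596-122282882) is outside it, and H2-T23 is at chr17:36029773-36032855 on the minus strand.

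Between Klrb1a and Klri2, the outermost genes considered, 29 genes were tested. Of the 7 members among them 4 were called, all higher W/ IL-10. Of the 22 other genes edgeR and limma-voom called 0 and DESeq2 called 1, Klrb1a (median log2 fold change 0.07, 5 at an unadjusted edgeR p under 0.05). Over all genes edgeR called 1.45% and DESeq2 2.67%. At such shares hardly any call is expected in so few genes, here and in the lists below. The nearest tested protein-coding neighbours of the cluster were Gabarapl1, an autophagy gene, at log2 0.11 (SE 0.14) and Klri1, a KLRE1 partner, at log2 0.40 (SE 0.32). Cd69, an early activation gene further along the complex, had a log2 fold change of 0.31 (SE 0.12, edgeR adjusted p = 0.277) and the Clr gene Clec2i 0.47 (SE 0.12, edgeR adjusted p = 0.0849). Klrb1a, the gene of an activating NKR-P1 receptor, was at log2 -0.88 (SE 0.22, edgeR adjusted p = 0.0962). After the GC and length correction edgeR called 2 of the 22 other genes, both lower W/ IL-10, Klrb1a (log2 -0.90, edgeR adjusted p = 0.0457) and Gm44078, a gene model awaiting experimental evidence, which was at log2 -0.99 (SE 0.40, edgeR adjusted p = 0.289) before it. The called genes lay within the same cluster, and the p-values of neighbouring genes are not independent evidence.

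**Figure D4:**
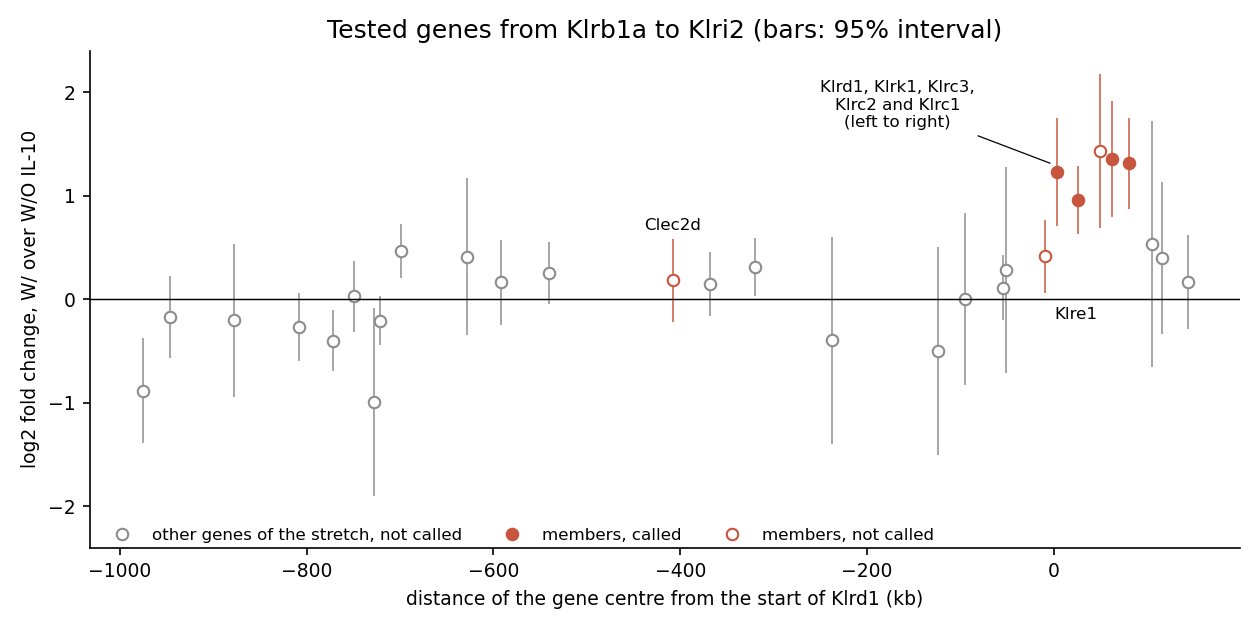
Log2 fold change, W/ IL-10 over W/O IL-10 (vertical axis, bars are 95% intervals), of the 29 tested genes from Klrb1a to Klri2 by distance of the gene centre from the start of Klrd1 in kb. The filled points, which mark called genes, are Klrd1, Klrk1, Klrc2 and Klrc1, and edgeR called no other gene of the stretch from the deposited counts.

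Because Klrc1 and Klrk1 moved together, the 250 bases before their RefSeq start sites are given, on the minus strand of GRCm38.p6 at chr6:129678974-129679223 for Klrc1 and chr6:129623865-129624114 for Klrk1. Capitals mark TGTGGT, the core of the RUNX site, or its reverse complement ACCACA.
Klrc1: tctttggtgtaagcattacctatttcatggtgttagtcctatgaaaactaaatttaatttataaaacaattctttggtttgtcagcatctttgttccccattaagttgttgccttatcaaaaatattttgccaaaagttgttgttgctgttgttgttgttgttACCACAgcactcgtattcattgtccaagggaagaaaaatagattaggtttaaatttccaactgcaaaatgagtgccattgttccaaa
Klrk1: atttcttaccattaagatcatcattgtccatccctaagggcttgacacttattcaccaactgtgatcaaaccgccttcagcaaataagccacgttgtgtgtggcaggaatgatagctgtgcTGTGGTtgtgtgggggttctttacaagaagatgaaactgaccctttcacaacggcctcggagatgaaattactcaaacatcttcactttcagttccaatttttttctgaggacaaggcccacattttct
Each window held 1 such match. The Klrc2 and Klrc3 windows held 2 each and were identical at 98.4% of 250 aligned positions, and the H2-T23 and Clec2d windows held 0. Of the 2 windows of Klre1, which was not called, 1 held a match. The windows of Klrc2, Klrc3 and H2-T23 and 1 of Klre1 overlap their own genes as annotated in GENCODE M21. Matches in them are therefore not all upstream of the gene. In all, 14.0% of the 32851 RefSeq windows held the motif. The motif TTCNNNGAA, bound by STAT factors, was in 0 of the windows of the 7 members that had any, and in 7.02% of all windows. The interferon response motif, GAAA followed by any 2 bases and GAAA again, was in the Clec2d and H2-T23 windows and in 2.98% of all windows. The motif TGANTCA, bound by AP-1 factors, was in no member window and in 6.75% of all windows. The motif CCAAT was in windows of Klrc2, Klrc3, Klrk1, Clec2d and H2-T23, and in 33.8% of all windows. Both strands were searched, and these motifs are matches of letters only.

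Of 13 genes of adaptors, kinases and phosphatases that such receptors signal through, edgeR, DESeq2 and limma-voom called 0 (median log2 fold change -0.10), and 3 had an unadjusted edgeR p under 0.05. Tyrobp (DAP12), the adaptor of CD94/NKG2C, was at 196, 108 and 96.6 CPM W/O IL-10 and 130, 93.8 and 76.0 CPM W/ IL-10, with overlapping groups (log2 -0.42, SE 0.27, edgeR adjusted p = 0.533). Hcst (DAP10), which couples NKG2D, ranged from 29.3 to 55.2 CPM W/O IL-10 and from 30.9 to 42.4 CPM W/ IL-10. Ptpn6 (SHP-1), the phosphatase recruited by inhibitory motifs, was at 117 to 128 CPM W/O IL-10 and 140 to 160 CPM W/ IL-10. From the deposited counts this separation did not pass the test (log2 0.30, SE 0.08, edgeR adjusted p = 0.104). After the GC and length correction Ptpn6 passed the adjusted p (log2 0.39, edgeR adjusted p = 0.0093). So did Vav1, also of this list (log2 0.35, edgeR adjusted p = 0.013). Both changes were too small for a call, and 0 of the 13 genes were called after the correction. The most abundant of the other genes, Inpp5d (SHIP-1), Zap70 and Pik3r1, were at log2 -0.10, 0.11 and -0.11.

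Of 15 genes of the class I pathway, not all of which act on Qa-1 itself, the same tools called 0 (median log2 fold change 0.04), and 2 had an unadjusted edgeR p under 0.05. B2m, the light chain of Qa-1, had 7.07 ± 0.404 counts per H2-T23 count without IL-10 and 6.89 ± 0.554 with it (SD, n = 3). H2-D1, whose leader sequence supplies the peptide bound by Qa-1, was at log2 -0.11 (SE 0.09), and H2-K1, another class I gene, was at -0.18 (SE 0.09). The peptide transporter genes Tap1 and Tap2 were at log2 -0.15 (SE 0.08) and 0.04 (SE 0.12). The chaperone genes Calr, Pdia3 and Canx, the most abundant of the remainder, were at log2 0.04, 0.24 and 0.13. Among the 9 other nonclassical class I genes that could be tested the same tools called 0, with 2 at an unadjusted edgeR p under 0.05, and the most abundant, H2-Q6, H2-Q7 and H2-Q4, were at log2 -0.23, -0.12 and -0.09.

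The ligand side of the other receptors held 1 called gene. Cdh1, the gene of the KLRG1 ligand E-cadherin, was at 71.4, 64.9 and 68.0 CPM W/O IL-10 and at 42.0, 46.6 and 39.1 CPM W/ IL-10. It fell in all 3 W/ IL-10 libraries below all W/O IL-10 libraries, by 0.68 on the log2 scale (SE 0.09, edgeR adjusted p = 0.00846) and by 0.62 after the GC and length correction. The call was lost without W/ IL-10 replicate 1 (edgeR adjusted p = 0.0556) or W/ IL-10 replicate 3 (edgeR adjusted p = 0.0704). Ulbp1 (MULT1), an NKG2D ligand, was at 109 to 156 CPM W/O IL-10 and 159 to 169 CPM W/ IL-10 (log2 0.27, SE 0.12, edgeR adjusted p = 0.355). H60b, the other NKG2D ligand gene tested, stayed under 1 CPM. Klrb1b, a receptor gene for Clr-b, was at log2 -0.40 (SE 0.13, edgeR adjusted p = 0.186), and the KLRE1 partner genes Klri1 and Klri2 were at 0.40 (SE 0.32) and 0.17 (SE 0.20).

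**Figure D5:**
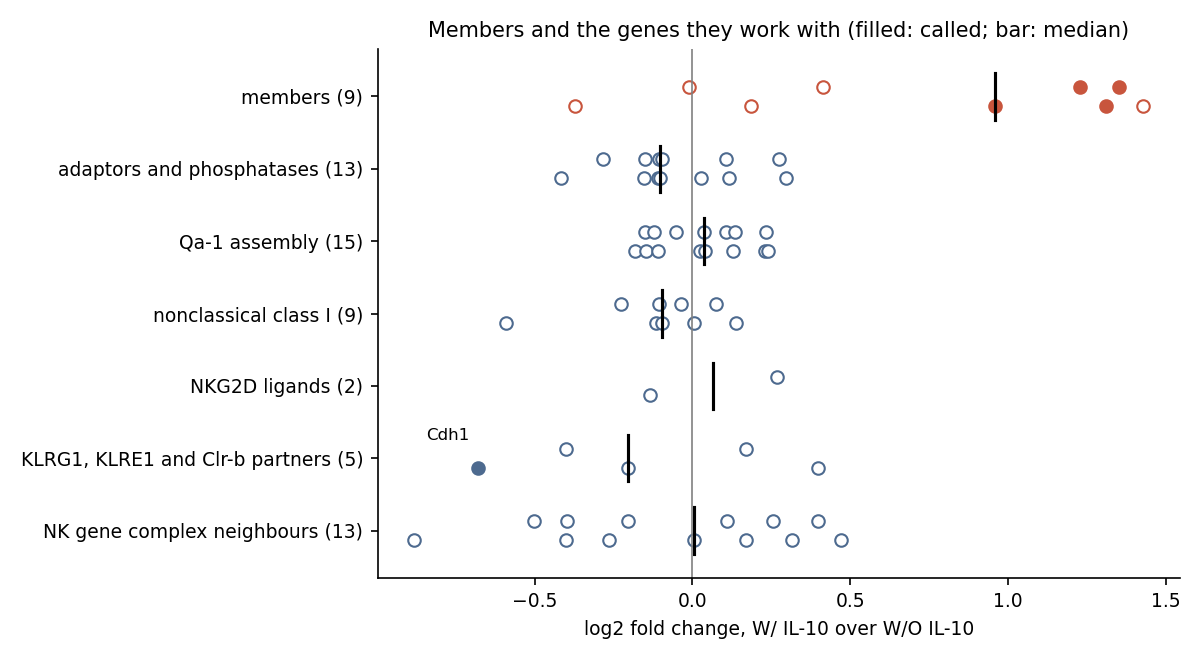
Log2 fold change, W/ IL-10 over W/O IL-10, of the 9 members (top) and of the tested genes of each list of partners, ligands and neighbours (number tested in brackets); filled points were called and black bars are medians. Outside the members Cdh1 is the only filled point, to the left of 0.

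The receptors of this group are shared by NK cells and CD8 T cells, so genes of other cells were set beside them. In bulk RNA, a change in the number of cells of a kind and a change in RNA per cell cannot be told apart. Of the 6 NK cell markers 4 had an unadjusted edgeR p under 0.05, 3 lower and 1 higher W/ IL-10. Ncr1 (NKp46) was called lower W/ IL-10 (5.46 to 8.05 CPM against 2.53 to 3.79 CPM, log2 -1.15, edgeR adjusted p = 0.0460), and the summed level of the list was 714 to 819 CPM W/O IL-10 and 500 to 564 CPM W/ IL-10. The factor gene Eomes made up most of that sum and fell from 498 to 539 CPM down to 353 to 384 CPM (edgeR adjusted p = 0.0176), by less than 1.5-fold. Fcgr3 was at log2 -0.71 (edgeR adjusted p = 0.116) and was called by DESeq2 and by edgeR after the GC and length correction, and the integrin gene Itga2 was higher without overlap, at 6.41 to 8.05 against 8.48 to 13.3 CPM (log2 0.53, edgeR adjusted p = 0.232). Cd8b1 was called higher W/ IL-10 (32.6 to 44.5 against 57.0 to 66.6 CPM, log2 0.67, edgeR adjusted p = 0.0306), and Cd8a had log2 0.56 (edgeR adjusted p = 0.0369), the same direction as the receptors. The Ncr1 and Cd8b1 calls were each lost when single libraries were left out, at edgeR adjusted p of up to 0.220 and 0.178. Of 8 T cell markers, all 3 tools called 0, and 3 had an unadjusted edgeR p under 0.05, Cd3g (log2 0.35), Thy1 (log2 0.31) and Cd5 (log2 -0.47, edgeR adjusted p = 0.0467). In 6 of the 8 the log2 fold change was above 0 (median 0.25), and the list summed to 2700 to 3020 CPM W/O IL-10 and 3420 to 3550 CPM W/ IL-10, without overlap and in the same direction as the receptors.

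Of the 8 dendritic cell markers tested, 7 had a log2 fold change below 0 (median of the list -0.58), and the list summed to 242 to 389 CPM W/O IL-10 and 187 to 294 CPM W/ IL-10. Ccl22 (log2 -2.65, SE 0.69), Fscn1 (log2 -1.71, SE 0.45) and Cd83 (log2 -0.93, SE 0.23) were lower without overlap and were not called by edgeR (adjusted p of 0.102, 0.105 and 0.0840), whereas DESeq2 called Fscn1 and Cd83. Itgax, the 1 gene that all 3 tools called, was higher W/ IL-10 (18.8 to 22.7 against 39.9 to 49.4 CPM), and the defining gene Flt3 was at 0 to 0.307 CPM. Of 4 B cell and 3 macrophage markers tested, all 3 tools called 0, with 0 and 1 at an unadjusted edgeR p under 0.05 and sums of 55.6 to 136 against 51.5 to 93.9 CPM and 23.6 to 30.3 against 28.7 to 31.6 CPM. The part of these cells in the change of the receptors was not tested.

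Klrc1 was most like 5 genes in its levels over the 6 libraries, by Pearson correlation of log2 CPM across genes tested, given as a description since all points share the same libraries and the same base composition trend. They were Serpinb9, an inhibitor of granzyme B (r = 0.996), the helicase gene Dhx40 (0.996), Plek (0.995), Klrc2 (0.994) and the leukotriene receptor gene Cysltr2 (0.993). Among the members Klrc3 ranked 9th (0.990), Klrk1 23rd (0.985) and Klrd1 51st (0.976), whereas H2-T23 had r = -0.328. Among the libraries without IL-10, replicate 1 held the lowest value of Klrc1, Klrc2, Klrc3, Klrd1, Klrk1 and Klre1 and the highest value of Klrg1. H2-T23 was most like Mtx2, Dtnbp1, Atf4, 2310033P09Rik and Gm4294 (r of 0.969 to 0.997), with log2 fold changes of -0.06 to -0.01.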

How the data were processed

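RNA from 6 cDNT samples, 3 in each group, was sequenced on an Illumina HiSeq. The deposited table holds read counts per gene, not normalized. The submitters' processing notes name HISAT2, HTSeq and GRCm38, whereas the study's methods name TopHat, Cufflinks and another library kit, and versions and the strand setting are not given in the sources used here, so reads of genes that overlap on opposite strands could be counted together. The design text speaks of duplicates, and 3 libraries per group were used. Genes that reached 10 counts in 3 or more libraries were fitted with edgeR 4.0.16 (TMM factors, quasi-likelihood test, no covariate), and p-values were adjusted over all 14916. The thresholds of 1.5-fold and 0.05 follow the study. Ratios were compared by exact two-sided permutation over libraries. Positions, GC content and shared stretches come from GENCODE M21 (29332 of 29393 identifiers matched), and promoters from RefSeq, which had windows for 7 of 9 members. The GC and length correction fits a spline with 5 degrees of freedom per library. On counts simulated for this comparison, 147 of 196 genes changed 2-fold and 38 of 194 changed 1.5-fold passed the adjusted p. In the same runs 16 and 3 unchanged genes passed too. They were 9.8% and 7.3% of those passing, above the share that a threshold of 0.05 allows. All members are named, as are listed genes with an adjusted p under 0.05, listed genes with a direct role for the members and up to 3 of each list by mean CPM. The members and lists were chosen with earlier results of these data known. Some listed genes, among them H60a, H60c and Raet1a, were not analysed here.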

Additional observations from a re-analysis of the deposited data

How the results depend on the processing

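The direction of Klrc1, Klrc2, Klrc3, Klrd1, Klrk1, Klre1 and Klrg1 was kept under all 14 alternatives. Among all tested genes 217 were called, against 359 with DESeq2, 639 without the filter on low counts, 358 with the GC and length correction and replicate block, and 35 to 254 when a library was left out. Of the 9 members 4 were called, 3 to 5 under the other settings and 0 to 4 when a library was left out, with 0 without W/ IL-10 replicate 1 or replicate 3. The sources do not say whether libraries that share a replicate number are paired. Their deviations from the group means correlated at 0.05, -0.06 and 0.11 over genes, which cannot decide it. With the replicate block 196 of 14916 genes and 3 of the 9 members were called, and Klrc2 had an adjusted p of 0.0565 (edgeR). With the GC and length correction the block took the calls over all genes from 268 to 358. The summed Klrc1, Klrc2 and Klrc3 counts had log2 1.12 to 1.47 with a library left out, and the call was lost without 3 of the 6 libraries, at edgeR adjusted p of up to 0.0997. The log2 ratio of H2-T23 to Klrc1 differed between groups by -0.856 after the GC and length correction. H2-T23 had log2 0.066 after the GC and length correction, 0.065 with the replicate block added, and -0.063 to 0.022 with a library left out. Clec2d had log2 -0.078 to 0.32 with a library left out, below 0 without W/ IL-10 replicate 1. Why the values moved was not tested. Depth limits Klrc3, with 12 to 46 counts. Counts do not measure surface receptors, and 3 libraries per group recover few changes of 1.5-fold.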
